A study of Mus musculus with 4 samples.

Results

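The S-phase and mitosis genes examined here are 38 genes of DNA replication and cell division, taken as a list of names. All 38 had at least 1 probe on the array, 49 probes in all, out of 33697 probes that carry a gene name for 26265 genes. The samples were pancreatic islets, small clusters of endocrine cells, taken from C57BL/6 mice 8 weeks old and kept for 24 h in RPMI1640 medium with 5.6 mM glucose. The vehicle group received DMSO and the other group 30 µM of GKA, an activator of glucokinase, the enzyme that traps glucose in beta cells. Each group had 2 samples, with 1 single-colour Agilent array for each, and nothing in the labels tells whether those 2 were separate mice or cultures. The p-values therefore rest on a spread between samples that may be technical.

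A dividing cell first copies its DNA and then separates the copies. In late G1, cyclin E with its kinase frees E2F transcription factors from the retinoblastoma protein, and E2F then drives genes of replication such as the Mcm helicase. Mitotic genes come on later, through a promoter element called CHR and the factors B-Myb and FoxM1. Most adult beta cells are at rest, and an islet preparation also holds other cells that can divide. In bulk samples, fewer cells of a type and less RNA per cell cannot be told apart.

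The promoters show this split between the early and the late genes only in part. RefSeq windows (build GRCm38.p6) of 300 bases, from 250 before to 50 after the gene start, were found for 32 of the 38 genes, with the most upstream start taken where a gene had several. An E2F word (TTTCCCGC, TTTGGCGC, TTTCGCGC or TTTGCCGC, on either strand) lay in 6 of 14 windows of S-phase members, in 0 of 18 windows of mitosis members and in 2.33% of all 27025 windows. A CHR word (TTTGAA or TTCGAA, on either strand) lay in 2 of 14 S-phase windows, 14 of 18 mitosis windows and 19.5% of all windows. The CCAAT box, searched on both strands, lay in 9 of 14 and 15 of 18 windows, against 38.02% of all. The S-phase members with an E2F word were Cdc6, Mcm3, Mcm5, Mcm6, Mcm7 and E2f2. These matches describe letters and not binding. The 4 windows printed here belong to E2f2 and Rrm2, which had probes that rose with GKA, Mcm7, whose probe fell, and Mki67, the usual histological marker of cycling cells. Capitals mark the E2F, CHR and CCAAT words, which overlap by 1 base in Mcm7. The windows are chr4:136172024-136172323 (plus strand) for E2f2, chr12:24708004-24708303 (plus) for Rrm2, chr5:138171834-138172133 (minus) for Mcm7 and chr7:135716330-135716629 (minus) for Mki67.
E2f2: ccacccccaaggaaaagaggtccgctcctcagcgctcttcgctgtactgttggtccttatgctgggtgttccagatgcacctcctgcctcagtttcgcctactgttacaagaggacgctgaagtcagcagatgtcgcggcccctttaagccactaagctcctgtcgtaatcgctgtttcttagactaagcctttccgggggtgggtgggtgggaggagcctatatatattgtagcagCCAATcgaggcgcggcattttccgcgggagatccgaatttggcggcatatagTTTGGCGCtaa
Rrm2: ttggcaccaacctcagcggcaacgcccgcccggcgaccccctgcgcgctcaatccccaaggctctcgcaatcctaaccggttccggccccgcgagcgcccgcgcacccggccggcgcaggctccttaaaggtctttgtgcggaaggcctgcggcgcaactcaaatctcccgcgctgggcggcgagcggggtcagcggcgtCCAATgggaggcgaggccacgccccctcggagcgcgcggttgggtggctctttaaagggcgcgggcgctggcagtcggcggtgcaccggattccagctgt
Mcm7: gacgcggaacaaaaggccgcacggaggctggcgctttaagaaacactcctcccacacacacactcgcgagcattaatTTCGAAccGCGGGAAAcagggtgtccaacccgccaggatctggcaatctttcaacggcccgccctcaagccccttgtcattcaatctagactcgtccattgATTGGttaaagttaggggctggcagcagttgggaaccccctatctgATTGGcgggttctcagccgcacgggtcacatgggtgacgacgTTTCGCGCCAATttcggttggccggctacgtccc
Mki67: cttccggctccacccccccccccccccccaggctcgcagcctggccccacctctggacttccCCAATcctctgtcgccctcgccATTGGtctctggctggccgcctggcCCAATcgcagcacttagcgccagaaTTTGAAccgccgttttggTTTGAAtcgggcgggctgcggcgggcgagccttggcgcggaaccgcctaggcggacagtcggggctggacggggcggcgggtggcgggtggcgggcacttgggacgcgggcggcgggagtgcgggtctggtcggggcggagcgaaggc
E2f2 holds its E2F word at bases 290 to 297 of the window, while Mcm7 holds one at 86 to 93 and another at 267 to 274. Mki67 holds CHR words at 135 to 140 and 153 to 158 and no E2F word. Rrm2 holds a single CCAAT box. An E2F word was thus present in the window of a gene whose probe rose and of a gene whose probe fell. The windows of Rrm2, Tk1 and Birc5, the other genes with a probe that passed, held no E2F word. Those of Tk1 and Birc5, which are not printed, held no CHR or CCAAT word either.

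Most of these genes were measurable in islets, though many were dim. Of the 49 probes, 40 and 39 were well above background with vehicle and 39 and 33 with GKA, while 33 were so on all 4 arrays and 8 on none. On the arrays as a whole, 63.5% to 67.1% of gene-named probes were well above background, and GKA replicate 2 had the lowest share. Markers of the islet itself were present, with all 9 beta-cell markers and all 7 markers of other endocrine cells well above background. With GKA, 2 of 9 beta-cell probes (22.2%) and 1 of 8 other endocrine probes (12.5%) rose and 0 fell at an adjusted p under 0.05 in limma. Of all tested probes 16.9% passed, 8.93% as higher and 7.95% as lower. The median changes of the 2 lists were 0.31 and 0.30, and the other endocrine probes ran from -0.89 to 0.83. What part these changes have in the results on dividing cells was not tested. The raw intensity at each array's 75th percentile was 794 and 810 with vehicle and 594 and 638 with GKA. Values below are log2 intensities relative to that percentile, so 0 marks it, and they serve to compare arrays for 1 probe, not probes with each other. A probe was tested if at least 1 group had it well above background on both of its arrays, which kept 38 probes of 31 members. Where a gene has several probes, they are numbered by their mean signal.

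With GKA, 3 of the 38 probes rose and 2 fell at an adjusted p under 0.05 in limma. That is 13.2% of them, while 16.9% of all 22139 tested probes passed (8.93% higher and 7.95% lower), so the share was near that of the array. The probes that rose belong to E2f2, Rrm2 and Birc5, and those that fell to Mcm7 and Tk1. At an unadjusted p under 0.05 there were 12 of 38, against 35.1% of all probes. The groups did not overlap in 23 of 38 probes, or 60.5%, against 65% of all (31.3% with GKA higher and 33.7% with GKA lower). The median log2 change was -0.10 over the tested probes and -0.02 over the whole array. That median was no firm sign of direction: it lay between -0.19 without vehicle replicate 2 and 0.0005 without vehicle replicate 1, and at 0.10 under normexp background correction with the same scaling. These directions are relative to the array's 75th percentile. Without scaling, when the median of all probes lay at -0.40, 1 of these probes passed as higher and 21 as lower. With spike-in scaling, when that median lay at -0.53, 1 passed as higher and 24 as lower. E2f2 was the 1 that passed as higher in both.

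**Figure D1:**
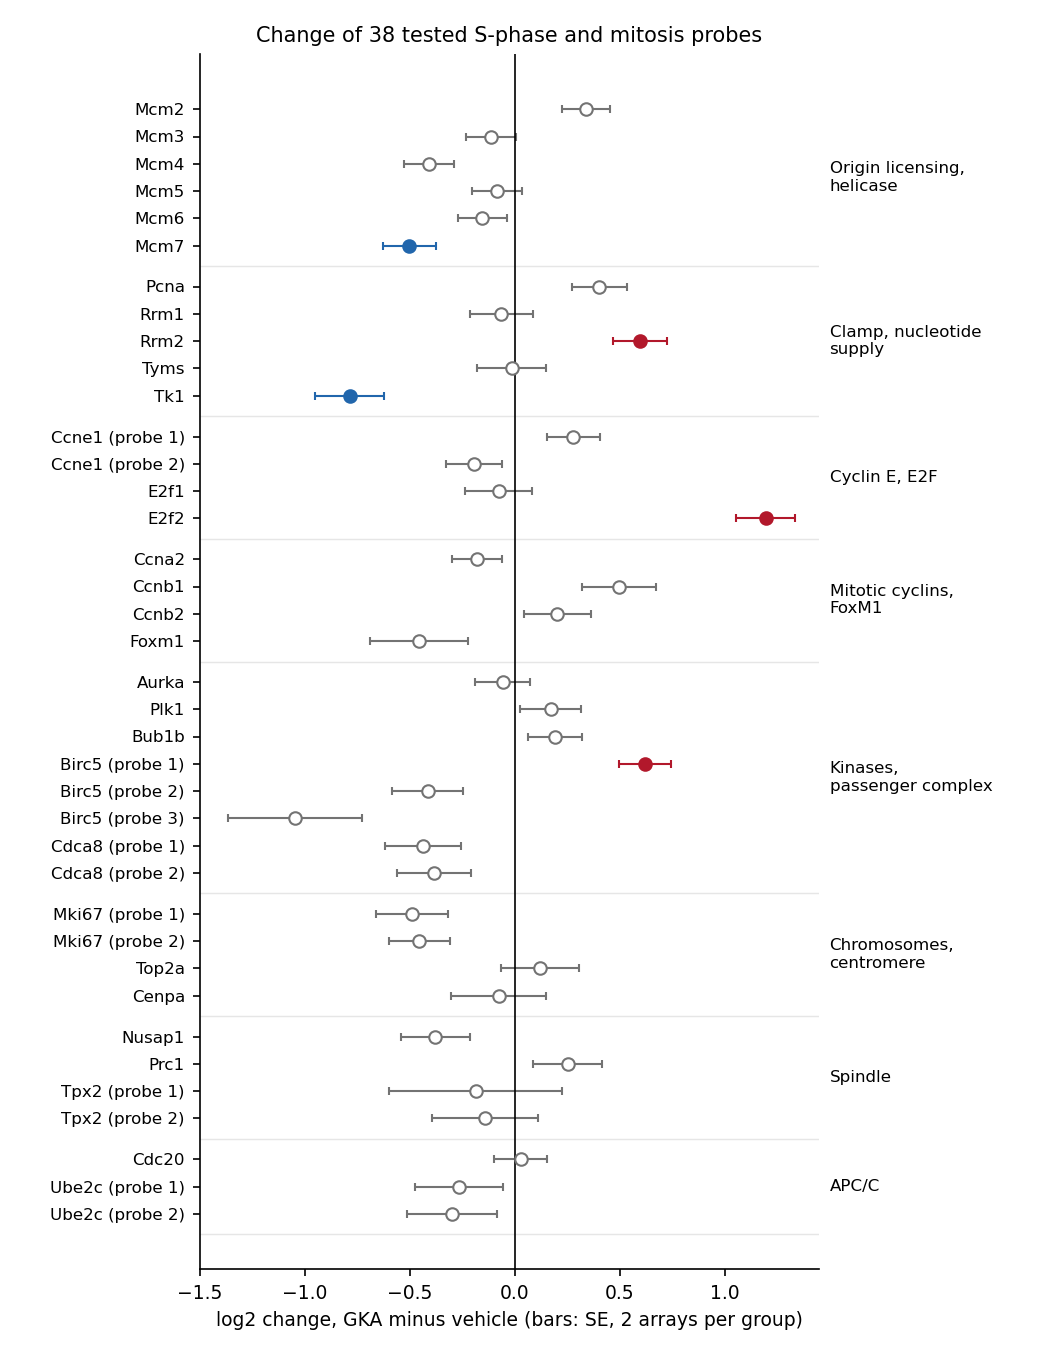
Log2 change with GKA (horizontal axis, GKA minus vehicle, bars show the SE from the fit) for each of the 38 tested probes, grouped by the role of the gene. Filled points passed at an adjusted p under 0.05, with E2f2 at 1.20 farthest to the right, and open points did not.

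Among the factors that start S phase, E2f2 showed the largest change of all members tested. E2f2 encodes one of the activating E2F transcription factors. Its probe (chromosome 4, 135750562 to 135750621, build mm9) stood at -1.38 and -1.60 with vehicle and at -0.37 and -0.21 with GKA. Both GKA arrays lay above both vehicle arrays, by far more than arrays of 1 group lay apart. The log2 change was 1.20 ± 0.14 (SE, n = 2 per group), or 2.29-fold (adjusted p = 0.00914). In raw intensity, with no scaling, the same probe read 306 and 268 with vehicle and 461 and 550 with GKA, so it was higher without scaling too. It passed whichever array was left out, with adjusted p between 0.0106 and 0.0477, and missed the threshold with no filter on dim probes (adjusted p = 0.0678).

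Its close relative E2f1, also an activator, did not follow. E2f1 stood at -0.29 and -0.61 with vehicle and -0.43 and -0.62 with GKA, a change of -0.07 ± 0.16 (adjusted p = 0.774). Those groups overlapped. Ccne1 encodes cyclin E1, which with its kinase starts S phase. Probe 1 of Ccne1 stood at -0.93 and -0.75 with vehicle and -0.54 and -0.58 with GKA, and its change of 0.28 ± 0.13 did not pass (adjusted p = 0.179). Probe 2 pointed the other way at -0.19 and was well above background on 1 of 2 GKA arrays. The single probe of Ccne2, cyclin E2, was well above background on no array.

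The Mcm2 to Mcm7 proteins form the ring-shaped helicase that is loaded at replication origins and unwinds DNA. All 6 subunits were well above background on every array. Only Mcm7 passed among these subunits. It stood at 0.78 and 0.63 with vehicle and 0.19 and 0.21 with GKA (chromosome 5, 138605925 to 138605984, build mm9). Its change of -0.50 ± 0.12 (adjusted p = 0.0477) made it 1.41-fold lower, and the vehicle arrays were 0.15 apart, so the groups were well separated. Mcm7 was the weakest of the 5 calls by adjusted p and did not pass without any single array (adjusted p from 0.0611 to 0.165). Mcm4 had a change of -0.41 ± 0.12 (adjusted p = 0.0693), from 0.66 and 0.74 with vehicle to 0.30 and 0.27 with GKA. Mcm6 stood at 2.03 and 2.06 with vehicle and 1.92 and 1.86 with GKA, a change of -0.15 ± 0.12 (adjusted p = 0.396).

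The other subunits lay closer to 0 or above it. Mcm3 stood at -0.11 and Mcm5 at -0.08, and Mcm2 went the other way at 0.34 ± 0.12 (adjusted p = 0.0990). In all 6 subunits the groups did not overlap, with GKA higher in 1, Mcm2, and lower in the other 5. Over all tested probes the groups did not overlap in 65%, with GKA higher in 31.3% and lower in 33.7%. The replicate arrays were unusually close here, with a median size of the gap of 0.03 between the vehicle arrays and 0.05 between the GKA arrays, against 0.16 and 0.14 over all tested probes. The subunits of the helicase, which work as 1 ring, thus ran from -0.50 to 0.34. Cdc6, which loads the ring onto DNA, had 2 probes, and neither was well above background on any array.

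The genes of the replication fork and of nucleotide supply moved in both directions. Rrm2, the regulated subunit of ribonucleotide reductase that makes deoxynucleotides, rose from -2.64 and -2.74 with vehicle to -2.18 and -2.00 with GKA (chromosome 12, 25398824 to 25398883). The change was 0.60 ± 0.13, or 1.51-fold (adjusted p = 0.0354). It did not pass with any array left out (adjusted p from 0.0713 to 0.156) or without scaling, where its raw intensities were 127 and 122 with vehicle and 131 and 159 with GKA. Rrm1, the larger subunit of the same enzyme, showed overlapping groups, at -0.15 and -0.12 with vehicle and -0.04 and -0.36 with GKA, a change of -0.06 ± 0.15 (adjusted p = 0.798).

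Tk1 makes thymidine monophosphate by the salvage route, and it fell. Its probe (chromosome 11, 117676845 to 117676904) stood at -4.20 and -4.54 with vehicle and -5.05 and -5.26 with GKA. The change was -0.79 ± 0.17 (adjusted p = 0.0331). The probe was dim, with raw intensities of 43.2 and 34.8 against 17.95 and 16.6, and it was well above background on 1 of 2 GKA arrays, so the size of its change is uncertain. Where detection on all arrays was required, Tk1 was not tested and 1 member, Mcm7, fell. Under normexp background correction with the same scaling its sign turned, to 0.08, and of the 4 fits that left out an array it passed only in that without vehicle replicate 2 (-0.96, adjusted p = 0.0195). Tyms, which makes the same nucleotide from deoxyuridine monophosphate, stood at -0.01 ± 0.17 (adjusted p = 0.965). Pcna, the sliding clamp of the polymerases, stood at 2.10 and 2.29 with vehicle and 2.59 and 2.61 with GKA. Its change of 0.40 ± 0.13 did not pass (adjusted p = 0.0867), although the groups did not overlap, and it lay at -0.10 with spike-in scaling.

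**Figure D2:**
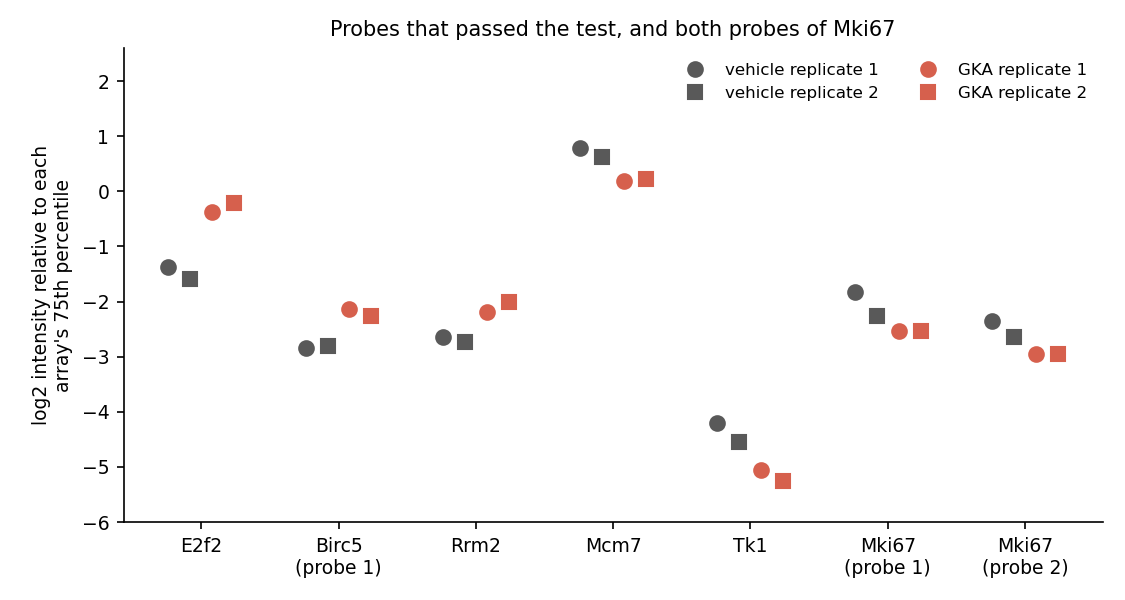
Log2 intensity relative to the 75th percentile of each array (vertical axis) for the 5 probes that passed and for both probes of Mki67, with 1 point per array. The GKA arrays lie above the vehicle arrays for E2f2, Birc5 and Rrm2 and below them for Mcm7 and Tk1, while the vehicle arrays for Mki67 probe 1 are 0.43 apart.

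Mki67, which codes for the Ki-67 protein that coats mitotic chromosomes, did not pass on either of its probes. Probe 1 stood at -1.83 and -2.26 with vehicle and -2.53 and -2.53 with GKA, a change of -0.49 ± 0.17 (adjusted p = 0.108). Probe 2 stood at -2.35 and -2.65 with vehicle and -2.95 and -2.96 with GKA, a change of -0.45 ± 0.15 (adjusted p = 0.0894). Both probes read lower on both GKA arrays, and in both the vehicle arrays lay far apart while the GKA arrays lay together. Without vehicle replicate 2, probe 1 passed at -0.70 (adjusted p = 0.0355), and without vehicle replicate 1 it stood at -0.27 (adjusted p = 0.333). The size of the Mki67 difference therefore turned on which vehicle sample was used. Without scaling, which shifts the whole array down, probe 1 passed at -0.87.

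The other genes of chromosome structure and the centromere showed no such gap between groups. Top2a, the topoisomerase that untangles replicated chromosomes, stood at -4.63 and -4.60 with vehicle and -4.25 and -4.74 with GKA, a change of 0.12 ± 0.19 (adjusted p = 0.680) with overlapping groups. Cenpa, the histone that marks centromeres, stood at -0.08 ± 0.23 (adjusted p = 0.843). The probe of Cenpf, a kinetochore protein, was well above background on no array.

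The mitotic cyclins and FoxM1 did not pass. Ccna2, cyclin A2, acts in S phase and at mitotic entry, and it stood at -4.01 and -4.10 with vehicle and -4.25 and -4.22 with GKA, a change of -0.18 ± 0.12 (adjusted p = 0.336). Ccnb2, a cyclin B, stood at -2.97 and -3.26 with vehicle and -2.79 and -3.02 with GKA, where the groups overlapped (0.20 ± 0.16, adjusted p = 0.407). The other cyclin B, Ccnb1, was measured by probe 1 at 0.50 ± 0.18 (adjusted p = 0.109), and its other 2 probes were well above background on no array. Without vehicle replicate 1, that probe of Ccnb1 passed at 0.72 (adjusted p = 0.0479). Foxm1, the activator of mitotic genes, stood at -0.45 ± 0.23 (adjusted p = 0.224) on probe 1. Cyclins and their activator thus pointed in different directions, none beyond the threshold.

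Birc5 codes for survivin, a member of the chromosomal passenger complex that guides chromosomes in mitosis, and its 3 probes disagreed. Probe 1 (chromosome 11, 117714057 to 117714116) rose from -2.84 and -2.81 with vehicle to -2.13 and -2.27 with GKA, by 0.62 ± 0.12 (adjusted p = 0.0284). Probe 2 (117716978 to 117717037), stood at -0.41 ± 0.17 (adjusted p = 0.144), from -2.32 and -2.56 to -2.69 and -3.02. Probe 3 (117711112 to 117711171), stood at -1.04 ± 0.32 (adjusted p = 0.0778), from -4.78 and -5.11 to -5.52 and -6.46, and was well above background on 1 of 2 GKA arrays. The groups did not overlap on any of the 3, yet probe 1 read higher and probe 2, like probe 1 well above background on all 4 arrays, read lower. No direction can be given for the gene. Probe 1 did not pass with any array left out (adjusted p from 0.0525 to 0.122), and probe 3 passed without GKA replicate 1 (-1.51, adjusted p = 0.0311).

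The partners of survivin and the mitotic kinases gave no call. Cdca8, borealin, of the same complex, stood at -0.44 ± 0.18 (adjusted p = 0.149) on probe 1 and -0.38 ± 0.18 (adjusted p = 0.184) on probe 2. Without vehicle replicate 2, probe 1 of Cdca8 passed at -0.67 (adjusted p = 0.0419). The kinase of the complex, Aurkb, was well above background on no array. Aurka, the kinase of the spindle poles, stood at -1.57 and -1.78 with vehicle and -1.71 and -1.76 with GKA, a change of -0.06 ± 0.13 (adjusted p = 0.794). Plk1, a kinase needed throughout mitosis, stood at 0.17 ± 0.14 and the checkpoint kinase Bub1b at 0.19 ± 0.13, both with adjusted p above 0.34. Bub1, its relative, was well above background on no array, although its probe is printed on 10 spots. Melk, a kinase of cycling cells, was well above background on vehicle replicate 2 alone, with raw intensities of 12.97 and 15.4 with vehicle and 3.54 and 3.53 with GKA. It was therefore not tested. With no filter on dim probes it was the single member to pass (adjusted p = 0.0466), but neither GKA value was well above background, so no size is given.

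Spindle genes and the machinery that ends mitosis showed no call and mostly overlapping groups. Prc1, which bundles the central spindle, stood at -2.13 and -2.46 with vehicle and -1.94 and -2.14 with GKA, a change of 0.25 ± 0.16 (adjusted p = 0.321). Nusap1, a microtubule-binding protein, stood at -0.38 ± 0.16 (adjusted p = 0.164) and was well above background on 1 of 2 GKA arrays. Tpx2, the activator of Aurora A, stood at -0.18 ± 0.41 on probe 1 and -0.14 ± 0.25 on probe 2. Cdc20, the activator of the anaphase-promoting complex, stood at -2.08 and -2.15 with vehicle and -2.16 and -2.01 with GKA (0.03 ± 0.13, adjusted p = 0.895). Ube2c, the ubiquitin-conjugating enzyme of that complex, stood at -0.26 ± 0.21 and -0.30 ± 0.22 on its 2 probes. For Kif11, a spindle motor, vehicle replicate 1 read 21.05 in raw intensity and the other arrays 2.67, 2.04 and 2.82, so 1 array alone was well above background and no test was made.

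S-phase and mitosis members differed in how far arrays of the same group lay apart. Of 15 S-phase probes, 2 rose and 2 fell, and of 23 mitosis probes, 1 rose and 0 fell in limma. These are 26.7% and 4.35% of the probes, against 16.9% of all probes, and the difference between the subsets was not tested. At an unadjusted p under 0.05 there were 7 of 15 and 5 of 23, or 46.7% and 21.7%, against 35.1% of all probes. In the mitosis probes, vehicle replicate 2 lay below vehicle replicate 1 in 20 of 23, with a median gap of -0.30, and GKA replicate 2 below GKA replicate 1 in 18 of 23, with a median gap of -0.20. Over all tested probes the same gaps were -0.06 and -0.04, with 60.5% and 58.4% of probes below 0. In the 72 tested probes for other mitosis genes they were -0.11 and -0.03, with 65.3% and 52.8% below 0. The gaps of that list were thus nearer those of the array than those of the mitosis members. The median difference between GKA and vehicle was -0.18 in the probes of the mitosis members, smaller than either of their gaps. Leaving out 1 array moved it widely, to 0.05 and -0.34 when vehicle replicate 1 or 2 was dropped and to -0.35 and -0.05 when GKA replicate 1 or 2 was, and it lay at 0.12 under normexp with the 75th percentile. The change with GKA exceeded both gaps in 8 of 23 mitosis probes, or 34.8%, against 10 of 15 S-phase probes, or 66.7%, and 53.8% of all probes. In the S-phase probes the median gaps were -0.02 and -0.04. Among the mitosis probes, probe 1 of Tpx2 had the widest gap in both groups, at -3.62 and -4.31 with vehicle and -3.58 and -4.72 with GKA. All tested mitosis probes lay below the 75th percentile on every array, while Mcm4, Mcm6, Mcm7 and Pcna lay above it. The part of signal strength in these gaps was not tested.

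**Figure D3:**
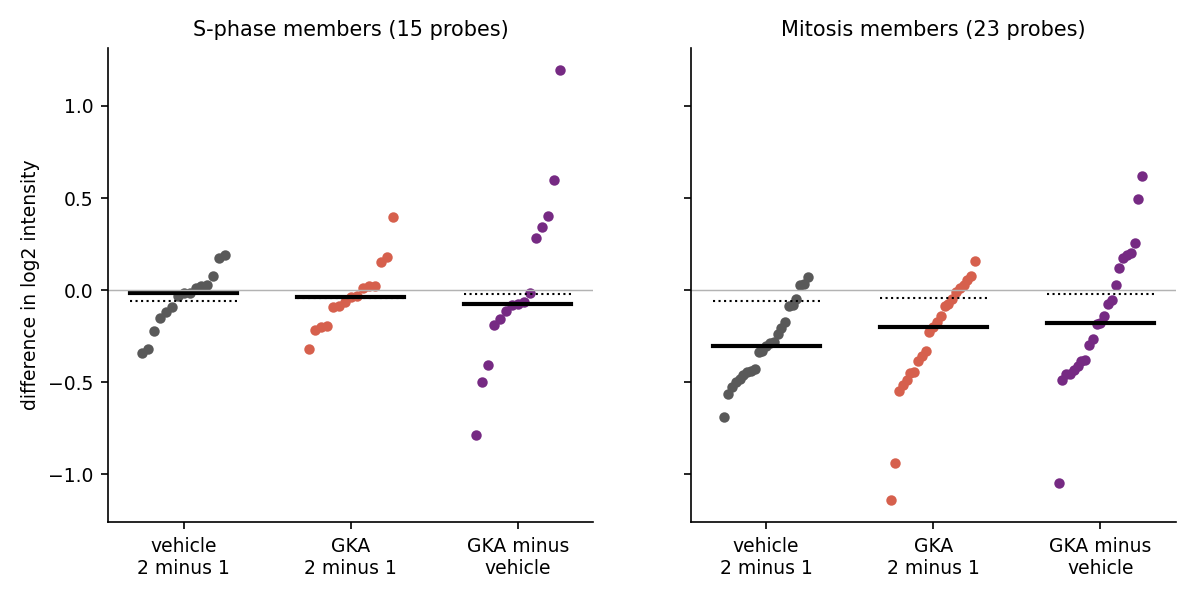
Differences in log2 intensity (vertical axis) between the vehicle arrays (replicate 2 minus 1), between the GKA arrays (replicate 2 minus 1) and between group means (GKA minus vehicle), with 1 point per tested probe, a solid line at the median of the members and a dotted line at the median of all tested probes. For the mitosis members on the right, the gaps within a group have medians of -0.30 and -0.20, while the difference between groups has a median of -0.18.

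Markers of other cells that can divide in an islet preparation also differed among the arrays. Of 21 tested probes for leukocyte markers, 2 rose and 7 fell, or 42.9%, against 16.9% of all probes, with a median of -0.42. Their summed level, in multiples of the 75th percentile, was 15.2 and 12.5 with vehicle and 12.6 and 11.03 with GKA (16 of 17 genes were well above background on some array). The median deviation of the mitosis probes from their 4-array mean was 0.22 and -0.08 with vehicle and 0.03 and -0.22 with GKA. Vehicle replicate 1 was thus highest and GKA replicate 2 lowest in both. The same held for the median deviation over all tested probes (0.04 and -0.01 with vehicle, 0.01 and -0.02 with GKA). It also held in the S-phase probes (0.06 and 0.02 with vehicle, 0.003 and -0.10 with GKA), so that order was not particular to these lists. The summed endothelial markers stood at 20.3 and 18.7 with vehicle and 21.4 and 19.4 with GKA. Fibroblast markers summed to 6.25 and 7.90 with vehicle and 4.96 and 5.38 with GKA, with Pdgfra on no array. Duct markers summed to 29.99 and 26.8 with vehicle and 27.1 and 32.9 with GKA, with Cftr on no array. In none of these lists was vehicle replicate 1 highest and GKA replicate 2 lowest. The part of these cells in the results was not tested.

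Other genes of the same processes gave shares of calls near that of the array. Of 51 tested probes for other S-phase genes, 1 rose and 6 fell, or 13.7%, with a median of -0.08. Lig1, the ligase that joins Okazaki fragments, stood at 1.35 and 1.31 with vehicle and 0.65 and 0.56 with GKA, and it fell by 0.72 ± 0.12 (adjusted p = 0.0183). Chaf1a, a chaperone that deposits histones on new DNA, fell by 0.70 ± 0.16 (adjusted p = 0.0405). Orc6l (now Orc6), a subunit of the origin recognition complex, rose by 0.57 ± 0.12 (adjusted p = 0.0328), but lay at 0.06 with spike-in scaling and did not pass with any array left out (adjusted p from 0.0711 to 0.133).

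Of 72 tested probes for other mitosis genes, 3 rose and 8 fell, or 15.3%, against 16.9% of all probes, with a median of -0.18. E2f7, a repressing E2F, was counted in this list, although the E2F family is described above with the genes of replication. It had 2 tested probes that disagreed. One stood at -2.80 and -2.68 with vehicle and -3.91 and -3.80 with GKA; it fell by 1.11 ± 0.12 (adjusted p = 0.00808) and passed with any array left out. The other stood at -2.70 and -2.87 with vehicle and -2.29 and -2.34 with GKA, a change of 0.47 ± 0.13 (adjusted p = 0.0602), so no direction can be given for E2f7. Cks1b, a subunit of cyclin-dependent kinases, rose on both probes, by 0.75 ± 0.12 and 0.74 ± 0.12, but lay at 0.24 and 0.23 with spike-in scaling, where neither passed. The kinetochore gene Cenpp fell by 0.93 ± 0.17 (adjusted p = 0.0243) and the spindle gene Spag5 by 0.84 ± 0.14 (adjusted p = 0.0181). For Spag5, 1 of 2 GKA arrays was well above background. Its change lay at -0.0069 (adjusted p = 0.969) under normexp with the 75th percentile. Cdc2a (now Cdk1), the kinase of mitotic entry, stood at -0.25 ± 0.15 on its 1 tested probe (adjusted p = 0.293). Within the E2F family, then, E2f2 rose, 1 of 2 probes of E2f7 fell, and E2f1, E2f3, E2f4, E2f5 and E2f6 did not pass.

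Of 49 tested probes for G1 regulators, which act before S phase, 1 rose and 5 fell, or 12.2%, against 16.9% of all probes. Ccnd1, cyclin D1, rose by 0.50 ± 0.12 (adjusted p = 0.0455), though it lay at 0.12 without scaling and at -0.01 with spike-in scaling. It did not pass with any array left out, where its change lay between 0.44 and 0.56. The inhibitors of cyclin-dependent kinases Cdkn1c and Cdkn2a fell, by 1.18 ± 0.21 (adjusted p = 0.0233) and 1.01 ± 0.22 (adjusted p = 0.0364). A probe of Cdkn1a, which encodes the inhibitor p21, fell by 1.75 ± 0.42 (adjusted p = 0.0455), but the gene's other 2 probes stood at 0.26 and 0.28. That probe of Cdkn1a lay at -1.10 without GKA replicate 2 (adjusted p = 0.0742), -1.52 without vehicle replicate 1 (adjusted p = 0.103) and -2.40 without GKA replicate 1 (adjusted p = 0.0173). Cdkn2a did not pass without vehicle replicate 1, GKA replicate 1 or GKA replicate 2, nor Cdkn1c without either GKA replicate.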

How the data were processed

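The authors deposited 1 Agilent Feature Extraction file per array, with intensity values that are background-subtracted but not scaled between arrays, per the file headers (Feature Extraction 10.7.3.1 there, 9.1 in the submitters' processing notes). They also deposited a series table with 1 intensity per group and 1 ratio of GKA over control; it supplied gene names and mm9 probe positions, and 44 of the 49 member ratios in the authors' deposited table were below 1, against 79.4% over gene-named probes. Ratios were not used otherwise.

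Log2 intensity minus each array's 75th percentile over non-control spots was used, leaving out control and outlier-flagged spots. Gene-named probes well above background on both arrays of a group were tested, 22139 in all, with limma 3.58.1 (lmFit and eBayes, R 4.3.3) in two-sided tests. P-values were adjusted by Benjamini-Hochberg across these probes, with a threshold of 0.05. The fit had 2 residual and 3.66 prior degrees of freedom, and its code was tested on simulated data. Exact permutation of 2 against 2 arrays cannot give p below 0.333, so none was made. The number of arrays limits the precision. Members and gene lists were chosen with earlier results of these data known. Values on every array are given for members that passed, for Mki67, Top2a, Pcna and Ccna2, for genes whose probes disagreed and for the strongest probe of each role. Others are examples chosen after their values were seen. From the other lists, up to 3 probes per direction with the largest change are named, except for an item that is not reported here. The vehicle and GKA arrays shared 1 slide in separate positions, and the effect of position cannot be told apart from that of GKA. Alternatives covered scaling, background correction with normexp (offset 50, on the median signals, since the files used here hold no mean signal), filters, probe choice, the variance model, each array left out and the replicate block.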

Additional observations from a re-analysis of the deposited data

How the results depend on the processing

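Median scaling, keeping flagged spots, taking the strongest probe of each gene and requiring detection on all arrays left the total of each count within 1.5 times, although with detection on all arrays 1 member fell in place of 2, and 2 G1 probes rose in place of 1. With the strongest probe of each gene, 3 G1 probes fell in place of 5. E2f2 kept its direction in every setting run and missed the threshold only with no filter on dim probes (adjusted p = 0.0678). Mcm7, Rrm2, Birc5 and Tk1 each failed in 2 or more settings beside those that left out an array.

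Without scaling, 10874 of all probes passed (947 higher, 9927 lower), with 22 of the members (10 S-phase, 12 mitosis), 26 other S-phase, 42 other mitosis and 27 G1 probes. Ccnb2 then lay at -0.18, Ccne1 at -0.10, Cdc20 at -0.35, Prc1 at -0.13 and Top2a at -0.26. With spike-in scaling, 11501 passed (660 higher, 10841 lower), with 25 members (10 S-phase, 15 mitosis), 27 other S-phase, 47 other mitosis and 31 G1 probes. Ccnb2 lay at -0.30, Ccnd1 at -0.0086, Ccne1 at -0.23, Cdc20 at -0.48, Pcna at -0.10, Prc1 at -0.25 and Top2a at -0.39. The median change of the members lay at -0.48 without scaling and -0.60 with spike-in scaling. With normexp and the 75th percentile, 6544 passed (4014 higher, 2530 lower), with 2 mitosis members, 14 other S-phase, 19 other mitosis and 17 G1 probes; Ccna2 lay at 0.19 and Tk1 at 0.083. With normexp and quantile scaling, 13 other S-phase and 13 G1 probes passed, and with an intensity trend in eBayes 14 and 11. With no filter, 283 probes passed, with 1 member (0 S-phase) and 0 in each of the other S-phase, other mitosis and G1 lists. The cause of these moves was not tested.

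Leaving out 1 array gave 877 to 3592 probes, 1 to 4 members (1 to 2 S-phase, 0 to 2 mitosis), 0 to 5 other S-phase, 1 to 8 other mitosis and 0 to 4 G1 probes. The lowest total, 877, came without GKA replicate 2, and 1123 came without GKA replicate 1 and 2158 without vehicle replicate 1. The lone array of a group is assumed to vary like the other group. Top2a ranged from -0.12 to 0.36, E2f1 from -0.23 to 0.084, Aurka from -0.16 to 0.047 and Cdc20 from -0.049 to 0.11.

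With the replicate block, 2129 probes passed, with 2 members, E2f2 and Tk1 (2 S-phase, 0 mitosis), 3 other S-phase and 6 other mitosis probes. Same-numbered arrays deviated together with r = 0.07 across all tested probes and r = 0.42 across the 38 member probes, which are not independent; nothing in the labels pairs the samples.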

Other observations

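Spc25, a kinetochore gene of the mitosis list, had a probe far above the 75th percentile of the array, at 5.48 and 5.32 on the log2 scale with vehicle and 6.25 and 6.33 with GKA, a change of 0.89 ± 0.13 (adjusted p = 0.0133 in limma). Its neighbour on chromosome 2 is G6pc2, a glucose-6-phosphatase of beta cells. In the RefSeq table (GRCm38.p6) Spc25 lies at 69193895 to 69206213 and G6pc2 at 69211073 to 69227993. The probe of G6pc2 stood at 3.53 and 3.64 with vehicle and 5.51 and 5.53 with GKA, a change of 1.94 ± 0.12 (adjusted p = 0.00229).

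Birc5 and Tk1, of which a probe rose and a probe fell, lie near each other on chromosome 11, at 117849237 to 117855743 and 117815519 to 117826087 in the same table. Acinar markers, which can show carry-over from the exocrine pancreas, summed to 3.66 and 3.30 multiples of the 75th percentile with vehicle and 7.72 and 8.30 with GKA, so the groups did not overlap. Of the 10 acinar genes, 5 were well above background on no array (Cela2a, Cpa1, Cpb1, Pnlip and Prss2). Of 4 tested acinar probes 1 rose and 1 fell, or 50%, against 16.9% of all probes. Whether or not they passed, 1 of the 4 changed upward and 3 downward, with a median of -0.38. Most tested acinar probes thus did not share the direction of the sum. The part of these cells in the results was not tested.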
